A study of Mus musculus with 22 samples.

Results

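The HoxB cluster is a row of homeobox genes on mouse chromosome 11, and its 10 protein-coding members (Hoxb1 to Hoxb9 and Hoxb13) were followed here through gastruloids, aggregates of mouse embryonic stem cells that form tissues of the early embryo in culture. The members were taken by symbol from the gene list of the deposited matrices, which holds 32285 genes, and all 10 had an entry. The gastruloids came from the wild-type embryonic stem cell line E14Tg2A, seeded at 300 cells per well. After 48 h of aggregation they received 3 µM of the GSK3 inhibitor CHIR99021 as a pulse, which turns on Wnt signalling. Single cells were captured on 10x lanes, and in the 3 experiments called MULTI-seq 1, 2 and 3 each gastruloid carried its own DNA barcode, so that its cells could be traced back to it. The groups were day 5 of MULTI-seq 1 (24 gastruloids), day 4 (11) and day 4.5 (12) of MULTI-seq 2, and day 3 (24), day 3.5, day 4, day 4.5 and day 5 (16 each) of MULTI-seq 3. They shared the cell line, the seeding and the pulse, and no genotype or drug differed between them. No source used here says whether gastruloids of a group came from separate cultures, so p-values measure only the spread between these gastruloids, which may in part be technical.

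Hox genes encode transcription factors that give cells along the head-to-tail axis their position. Within a cluster the genes at the 3′ end, with Hoxb1 outermost, are known to be switched on earlier and to reach further towards the head than those at the 5′ end, an order called collinearity. Wnt and FGF signals, CDX factors and retinoic acid are known to act on the clusters in the tail end of the embryo, where neuromesodermal progenitors give rise to spinal cord and to presomitic mesoderm (PSM), the tissue that segments into somites. Hoxb1 is best known from the hindbrain and the primitive streak, Hoxb2, Hoxb3 and Hoxb4 from the hindbrain and neck, Hoxb5 to Hoxb9 from the trunk, and Hoxb13 from the tail.

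In the GENCODE vM21 annotation of mm10, the build named in the submitters' processing notes, the 10 genes lie on the + strand. The stretch from the start of Hoxb9 to the end of Hoxb1 covered 96800 bases, and Hoxb13 stood apart from Hoxb9 by 74009 bases. Hoxb2 shared 953 exonic bases and Hoxb3 shared 2250 with the antisense gene Hoxb3os, and Hoxb5 shared 100 with the antisense gene Hoxb5os. No source used here states whether the authors' counting used strand, so reads of Hoxb2, Hoxb3 and Hoxb5 could in part come from those partners. RefSeq promoter windows (GRCm38.p6) were found for 3 members, Hoxb1, Hoxb4 and Hoxb8.

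Of these, Hoxb1 and Hoxb8 are printed because their levels within a tissue did not overlap between days. Each line gives the 250 bases before the start of the gene, 5′ to 3′, with capitals for matches on either strand to TTTATG, a motif like that of CDX factors, or TGATNNAT, a motif bound by PBX and HOX pairs.
Hoxb1, chr11:96365508-96365757, + strand: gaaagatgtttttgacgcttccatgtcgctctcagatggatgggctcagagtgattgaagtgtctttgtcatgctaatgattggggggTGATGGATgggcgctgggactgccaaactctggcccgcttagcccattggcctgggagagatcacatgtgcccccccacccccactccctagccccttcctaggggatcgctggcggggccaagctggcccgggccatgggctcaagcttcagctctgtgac
Hoxb8, chr11:96281655-96281904, + strand: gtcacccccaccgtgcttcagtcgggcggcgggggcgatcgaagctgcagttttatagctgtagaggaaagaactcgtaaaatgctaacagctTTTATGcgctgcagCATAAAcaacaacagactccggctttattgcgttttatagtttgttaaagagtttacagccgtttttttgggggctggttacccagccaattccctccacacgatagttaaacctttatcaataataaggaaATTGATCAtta
The Hoxb8 window held 2 matches to TTTATG and 1 to TGATNNAT, and the Hoxb1 window held 1 match to TGATNNAT. Over 32851 windows of 300 bases (50 of them after the start), 11.9% held TTTATG and 8.85% held TGATNNAT. Direct repeats of AGGTCA spaced by 2 or by 5 bases, forms of the retinoic acid response element, stood in 3 windows each and in none of the 3 members' windows. A match describes letters in a window and is not a measured site.

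Of 77674 final cells, 53730 (69.2%) carried the barcode of 1 of 136 gastruloids, and 135 gastruloids had the 30 cells required. The 77674 include the cells of 4 lanes without gastruloid calls, so the share is higher among the lanes with calls. The 18 lanes used held 64703013 to 307883815 UMIs (single RNA molecules counted) each, with median cells of 8287 to 38443 UMIs. Mitochondrial UMIs were a median 1.94% to 2.26% of a cell in the lanes of MULTI-seq 3 and 4.85% to 5.48% in the others. No more than 15 barcodes were shared by any 2 lanes (0.410% of a lane at most). Cell types are the authors' 25 deposited names. In the types used that had a marker list, the defining markers were above the level over all cells, with these exceptions. Uncx was not above it in Early and Late Anterior PSM, nor was Mesp2 in Somites and Mature Somites. Pax6 was not above it in Early Spinal Cord, Early Neurectoderm and Caudal Neurectoderm, nor was Sox2 in Early Neurectoderm. Caudal Epiblast and the nascent mesoderm types had no list and were not checked.

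Over whole gastruloids of MULTI-seq 3, every member from Hoxb1 to Hoxb9 had a higher mean at day 3.5 than at day 3. Hoxb1 had its highest means at days 3.5 and 4, while Hoxb3 and Hoxb4 had theirs at days 4.5 and 5. Levels are in CPM, a gene's UMIs scaled to the same total in every gastruloid, which compare 1 gene between samples and not genes with each other, given as mean ± SD over gastruloids. Through days 3, 3.5, 4, 4.5 and 5, Hoxb1 had 17.8 ± 7.25, 56.9 ± 44.3, 57.6 ± 32.4, 27.3 ± 15.6 and 19.6 ± 6.42 CPM. Hoxb3, by contrast, stood at 0.875, 14.0, 25.1, 36.3 and 40.4 CPM on the same days, and Hoxb4 at 5.41, 33.8, 33.8, 58.0 and 60.9 CPM. For both, days 4.5 and 5 overlapped within 1 SD (Hoxb3 36.3 ± 7.56 and 40.4 ± 6.44, Hoxb4 58.0 ± 12.7 and 60.9 ± 9.61). Hoxb8 had 23.2 ± 11.2, 126 ± 56.7, 62.9 ± 57.9, 121 ± 40.1 and 100 ± 18.7 CPM. Hoxb9, the most 5′ member apart from Hoxb13, had 11.1 ± 7.14, 121 ± 71.3, 58.6 ± 72.8, 152 ± 74.9 and 158 ± 50.4 CPM. The highest means of Hoxb9 stood at days 4.5 and 5, but its day 3.5 values overlapped these within 1 SD. Hoxb8 had its highest mean at day 3.5. Within Early Spinal Cord, Hoxb9 means ran the other way, with 386 ± 33.3 CPM at day 3.5 (n = 4), 256 ± 67.1 at day 4.5 (n = 14) and 229 ± 32.3 at day 5 (n = 15). Days 3, 3.5 and 4.5 stood in separate pools of lanes, so steps between pools are a description with no test. In sums over whole gastruloids alone, fewer cells of a type and less RNA per cell cannot be told apart, and levels within types are given below. In the 2 types tested between days 3.5 and 4, Hoxb8 had higher means at day 4. They were 227 and 261 CPM in Caudal Epiblast and 8.98 and 12.7 in Early Posterior PSM.

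**Figure D1:**
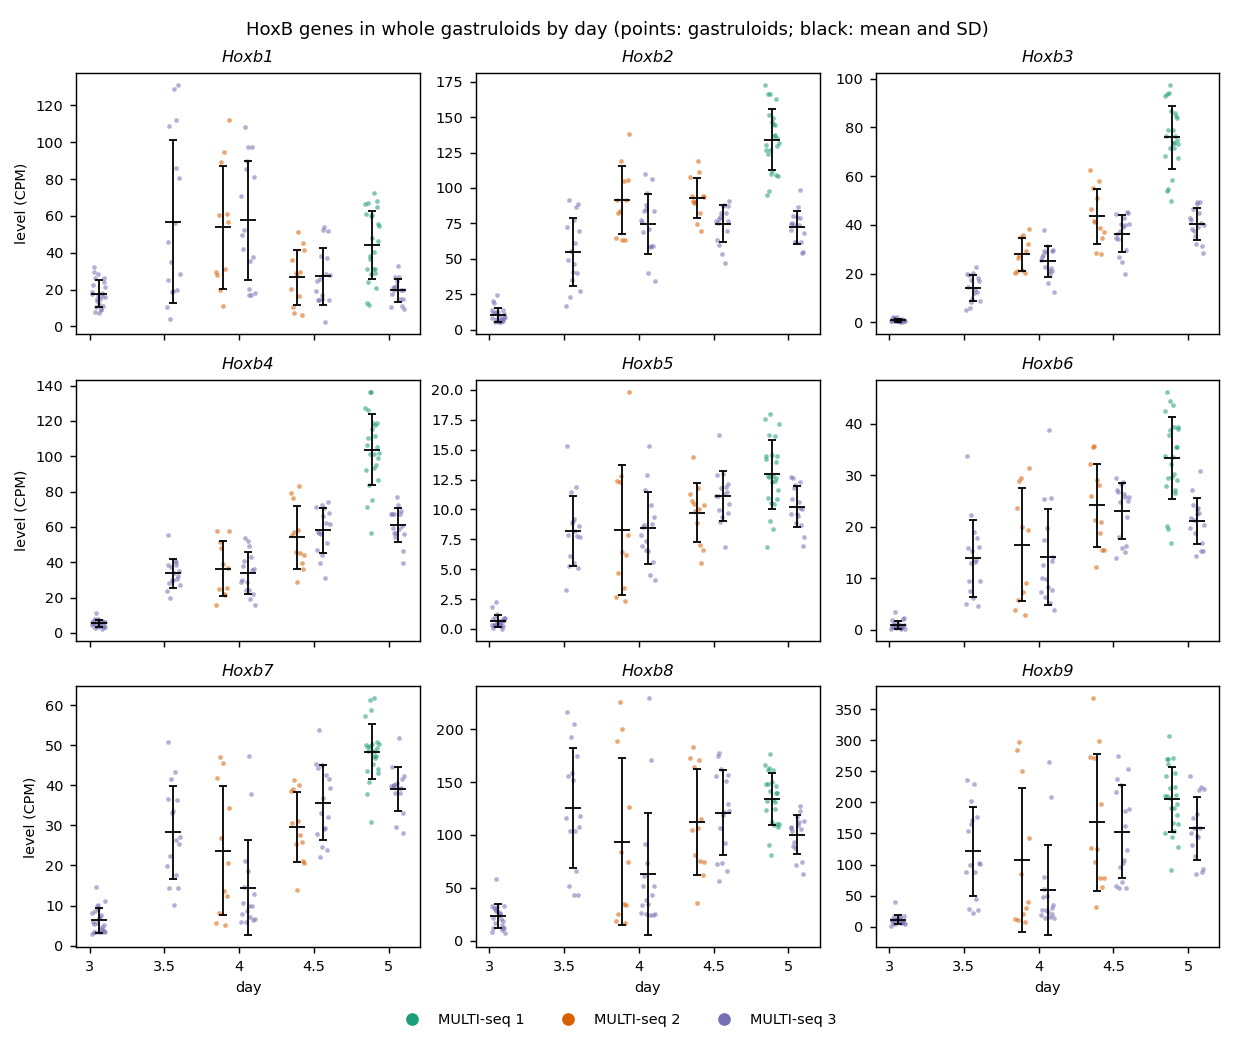
Whole-gastruloid level of each HoxB member (CPM, y axis) against day of culture (x axis), with 1 point per gastruloid and the mean and SD of each group. Hoxb1 is highest at days 3.5 and 4, whereas Hoxb3 and Hoxb4 have their highest means at days 4.5 and 5. The gastruloids of a day spread widely for Hoxb8 and Hoxb9 at days 3.5 and 4.

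Days sharing a pool were compared by edgeR's quasi-likelihood test, with Benjamini-Hochberg adjustment over all genes and an adjusted p below 0.05 as the threshold. SE is that of the log2 fold change. Between day 3.5 and day 4 of MULTI-seq 3, 4 of 9 tested members changed, against 60.4% of all tested genes. Hoxb3 rose from 4.87 to 22.5 CPM (median 14.0) to 12.2 to 37.7 (median 26.2), a log2 fold change of 0.78 (SE 0.172, adjusted p = 0.000264). Hoxb8 ranged from 43.0 to 217 CPM (median 117) at day 3.5 and from 24.1 to 229 (median 41.0) at day 4, and it fell by 1.03 (SE 0.313, adjusted p = 0.00551). Hoxb7 fell by 1.02 (adjusted p = 0.00263) and Hoxb9 fell by 1.08 (SE 0.418, adjusted p = 0.0256), from a median of 101 CPM to 28.8. The 2 days overlapped for all 4 members. The neural share of cells was 37.3% ± 28.3 at day 3.5 and 10.2% ± 23.9 at day 4, and with this share in the fit the change of Hoxb9 was -0.54 with adjusted p = 0.12, while Hoxb1 had -0.69 with adjusted p = 0.0196 (-0.04 and 0.94 without the share).

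Between day 4 and day 4.5 of MULTI-seq 2, 1 of 9 tested members changed, against 7.36% of genes. Hoxb3 rose from 27.9 ± 6.71 to 43.5 ± 11.3 CPM (log2 fold change 0.63, SE 0.150, adjusted p = 0.0109), and 12 of 12 gastruloids of day 4.5 lay above the day 4 median. Without lane 2 of the pool the change was 0.51 with adjusted p = 0.12, and at a minimum of 100 cells adjusted p = 0.057. Hoxb1 had -0.99 with adjusted p = 0.074, which was -1.07 with adjusted p = 0.0499 without lane 2 and -1.14 with adjusted p = 0.0468 at a minimum of 100 cells. Between day 4.5 and day 5 of MULTI-seq 3, 0 of 9 members passed the edgeR test, 0 had an unadjusted p below 0.05, and DESeq2 called 0, while 13.5% of all tested genes were called. Hoxb1 had 27.3 CPM at day 4.5 and 19.6 at day 5 (log2 fold change -0.51, adjusted p = 0.18), and with the neural share in the fit the change was -0.54 with adjusted p = 0.026. Whole gastruloids thus showed no called HoxB change in the interval in which 8 of 9 members changed within Mature Somites.

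Hoxb1 and Hoxb9 were highest in different cell types. At day 3.5, Hoxb1 was highest in Early Posterior PSM (195 ± 22.2 CPM, n = 10), then Primitive Streak (41.3 ± 13.4, n = 13) and Caudal Epiblast (38.4 ± 13.8, n = 13), which overlapped within 1 SD, and it was 6.46 ± 2.52 in Early Spinal Cord (n = 4). Hoxb9 was highest in Early Spinal Cord (386 ± 33.3), with Caudal Neurectoderm at 298 ± 70.1 (n = 10) and Caudal Epiblast at 179 ± 52.9, and lowest in Early Posterior PSM at 2.18 ± 2.00. Hoxb8 had the same 3 types at the top, with Caudal Neurectoderm at 269 CPM, Early Spinal Cord at 257 ± 17.8 and Caudal Epiblast at 227, and was also lowest in Early Posterior PSM (8.98 ± 5.11). Hoxb2, known from hindbrain segments, overlapped between Early Posterior PSM (99.0 ± 16.4 CPM) and Early Spinal Cord (93.6 ± 11.4). It was lower in Caudal Epiblast (69.4 ± 17.1), Caudal Neurectoderm (45.3 ± 7.37) and Primitive Streak (20.5 ± 7.30), the last of which overlapped no neighbour in this order within 1 SD. Types were clusters of expression that included these genes, so 1 type against another is a description.

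At day 5, Hoxb1 had 81.8 ± 17.98 CPM in Late Posterior PSM (n = 15) and 79.9 ± 18.1 in Late Anterior PSM (n = 12), which overlapped, then 34.7 ± 8.72 in Somites (n = 10), 12.4 ± 4.54 in Early Spinal Cord (n = 15) and 6.10 ± 2.17 in Mature Somites (n = 16). Hoxb4 was highest in Late Posterior PSM (126 ± 14.8) and neuromesodermal progenitors, named NMPs (106 ± 8.28, n = 14), and lower in Mature Somites (39.6 ± 5.47). Hoxb9 ran from 280 ± 25.5 in Late Spinal Cord (n = 8) through 229 ± 32.3 in Early Spinal Cord, 216 ± 30.6 in NMPs and 181 ± 29.1 in Late Posterior PSM to 81.0 ± 36.2 in Mature Somites, with Somites (149 ± 21.97) and Late Anterior PSM (128 ± 18.5) between the last pair, and each type overlapped the next in this order within 1 SD. Hoxb5 differed from both, with its highest means in Late Anterior PSM (20.2 ± 5.09) and Somites (18.9 ± 6.56). Among the types with at least 4 gastruloids, Head Mesoderm (n = 5) and Mature Endoderm (n = 8) had the 2 lowest means of that day for each of Hoxb1 to Hoxb9. Hoxb9 had 1.74 ± 1.27 and 5.05 ± 3.89 CPM there. Endothelium, with too few gastruloids for this order, had 1.47 CPM of Hoxb9 over 122 pooled cells.

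**Figure D2:**
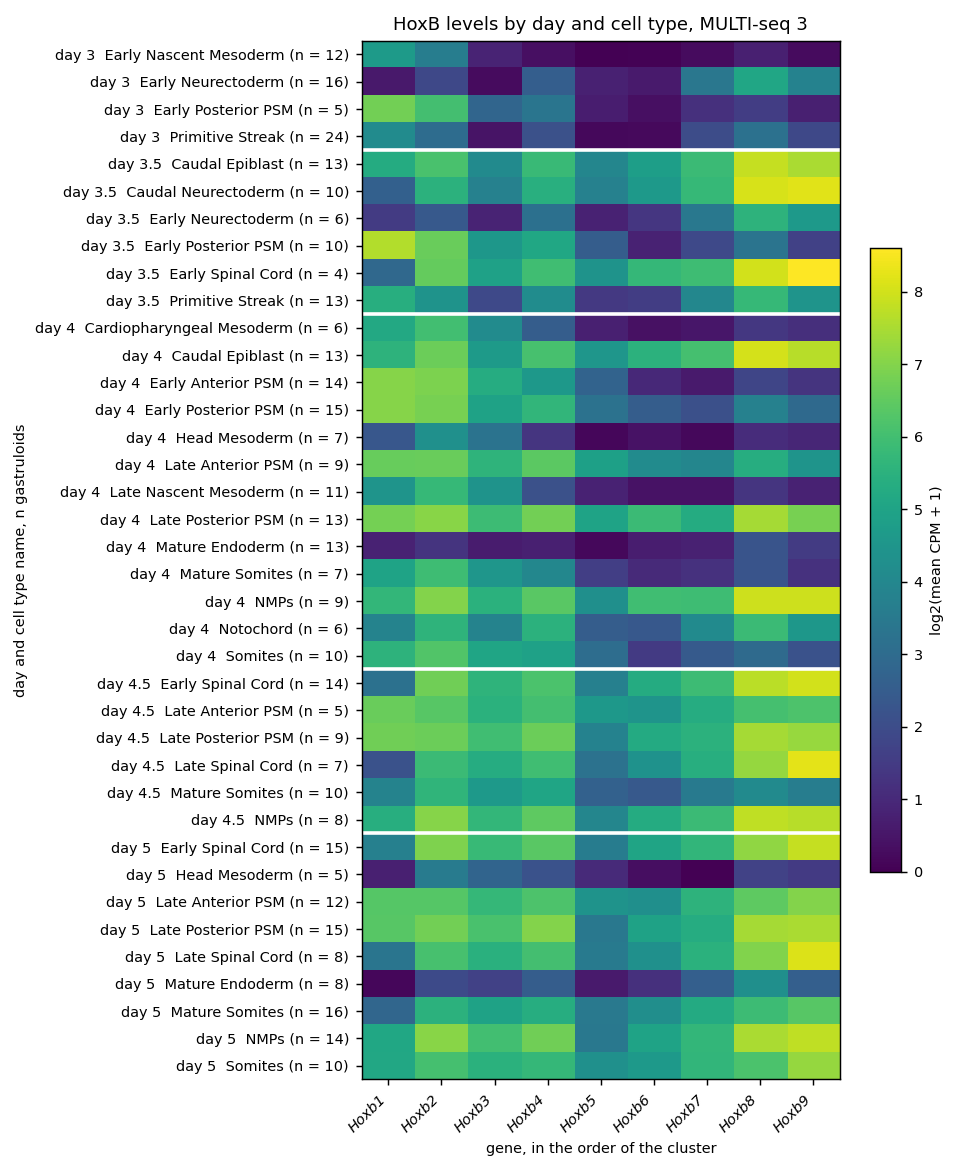
Mean level of Hoxb1 to Hoxb9 (columns) in the cell types (rows) of MULTI-seq 3 by day, coloured by log2(mean CPM + 1). At day 3.5 Hoxb1 is highest in Early Posterior PSM and Hoxb9 in Early Spinal Cord, and at day 5 Hoxb8 is highest in NMPs and Late Posterior PSM (182 and 174 CPM). Among the types shown, Head Mesoderm and Mature Endoderm have the lowest values of day 5.

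Types were also compared within single gastruloids. Among day 4 gastruloids of MULTI-seq 3 with 20 cells of both types, Hoxb7, Hoxb8 and Hoxb9 were higher in NMPs than in Late Posterior PSM in 9 of 9, while Hoxb3, Hoxb4 and Hoxb5 were higher in NMPs in 0 of 9. Hoxb9 was higher in Early Spinal Cord than in Mature Somites in 15 of 15 gastruloids at day 5 of MULTI-seq 3, in 19 of 19 of MULTI-seq 1 and in 4 of 4 at day 4.5 of MULTI-seq 2. Hoxb1 was higher in Early Spinal Cord than in Mature Somites in 1 of 8 gastruloids at day 4.5 and in 13 of 15 at day 5 of MULTI-seq 3.

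Within Early Posterior PSM, the first PSM cells of the series, Hoxb1 fell and 6 members rose (Hoxb3, Hoxb4, Hoxb5, Hoxb6, Hoxb8 and Hoxb9) between day 3.5 (10 gastruloids) and day 4 (15). Of 8 tested members 7 changed, against 36.9% of all tested genes (18.3% higher and 18.6% lower). Hoxb7, with means of 2.73 and 3.32 CPM, did not pass the filter on low counts. That filter can admit a low member through 1 day alone, as may hold for Hoxb6 here. The count of 7 in 8 thus leans towards members that changed. Hoxb1 ranged from 169 to 243 CPM (median 191) at day 3.5 and from 103 to 156 (median 134) at day 4, so that the days did not overlap, and it fell by 0.59 on the log2 scale (SE 0.0694, adjusted p = 4.88e-08). Hoxb6 rose from 0.771 ± 0.691 CPM (lowest 0, highest 2.23) to 4.84 ± 3.03 (lowest 0, highest 8.89), a log2 fold change of 2.36 (SE 0.323, adjusted p = 6.65e-07), with overlap. Hoxb9 had 0 to 7.07 CPM (median 1.63) and then 1.33 to 24.8 (median 5.01), a log2 fold change of 1.68 (SE 0.429, adjusted p = 0.00228). Hoxb3, Hoxb4 and Hoxb5 rose by 0.35, 0.60 and 0.95, and Hoxb2 had a log2 fold change of 0.11 (adjusted p = 0.21). Hoxb8 rose by 0.56 (adjusted p = 0.0463), which was 0.53 (adjusted p = 0.11) without lane A and 0.37 (adjusted p = 0.19) without lane B. The members' median log2 fold change was 0.58 and that of all genes tested 0.0056.

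Free RNA in droplets can lend a few UMIs to cells that lack a gene, so shares of cells with a UMI were read against Mature Endoderm, each cell thinned to 5000 UMIs. Mature Endoderm is not shown to lack the members, so its share is not a measured floor of free RNA. At day 5 it had 18.5 ± 12.9 CPM of Hoxb8 and 5.11 ± 4.41 of Hoxb7, beside 2.27 ± 1.25 and 0 in Head Mesoderm. Hoxb9 was found in 0.679% of Early Posterior PSM cells at day 3.5 and in 1.87% at day 4, beside 0.826% of Mature Endoderm cells at day 4. Other types low in Hoxb9 at day 4 had 0.245% (Late Nascent Mesoderm), 0.733% (Cardiopharyngeal Mesoderm) and 1.69% (Head Mesoderm), so the day 3.5 share lies within the range of these types. In CPM, Hoxb9 had 2.18 in Early Posterior PSM at day 3.5, beside 1.80 in Mature Endoderm and 0.769 to 1.23 in those 3 types. Hoxb6 went from 0.0917% to 2.04% beside 0.145%, and Hoxb1 from 56.2% ± 6.27 to 44.0% ± 7.23 beside 0.343%. Unthinned, 96.3% and 86.1% of Early Posterior PSM cells (median 32662 and 28456 UMIs) held a Hoxb1 UMI, against 3.54% of Mature Endoderm cells (median 40441.5 UMIs). Other marker lists moved within this type too: the anterior PSM and somite list summed to 17.5 ± 10.9 CPM at day 3.5 and 141 ± 42.9 at day 4 (7.95 to 39.5 and 91.6 to 220.4, 5 of 5 markers higher), and the NMP list to 286 ± 122 and 106 ± 36.0 (1 of 4 higher). Their part in the HoxB changes was not tested.

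Caudal Epiblast, the tail-end epithelium with 13 gastruloids on each day, showed rises and no falls over the same interval. Of 9 tested members 6 rose, against 9.61% of genes called higher and 18.8% called in either direction. Hoxb6 went from 13.6 to 45.4 CPM (median 27.2) to 34.6 to 52.5 (median 45.8), a log2 fold change of 0.73 (SE 0.102, adjusted p = 5.78e-06). Hoxb2 rose from 69.4 ± 17.1 to 101 ± 13.9 CPM (0.56, adjusted p = 0.000318) and Hoxb3 from 16.4 ± 4.77 to 24.8 ± 5.95 (0.64, adjusted p = 0.000884). The 2 days overlapped for each of these genes. Hoxb4 (0.31, adjusted p = 0.00641), Hoxb5 (0.54, adjusted p = 0.0091) and Hoxb8 (0.20, adjusted p = 0.0447) also passed, while Hoxb1 (0.33), Hoxb7 (0.21) and Hoxb9 (0.18) did not. Hoxb4 lost its call without lane C (0.24, adjusted p = 0.07) or D (0.28, adjusted p = 0.058), Hoxb5 without lane C (0.46, adjusted p = 0.064) and Hoxb8 without each of the 4 lanes (0.13 to 0.19, adjusted p = 0.054 to 0.25). The posterior PSM marker list summed to 188 ± 50.6 and 301 ± 62.9 CPM and the neural list to 71.4 ± 7.96 and 94.0 ± 23.3, and their part was not tested.

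Late Posterior PSM of MULTI-seq 2 gave the same pair of directions between day 4 (4 gastruloids) and day 4.5 (8), where 0.846% of genes were called and 2 of 9 members changed. Hoxb1 ranged from 128 to 171 CPM (median 159) and then from 102 to 129 (median 113), and it fell by 0.47 (SE 0.0975, adjusted p = 0.00836). Hoxb9 ranged from 55.7 to 116 CPM (median 83.2) and then from 113 to 164 (median 144), a rise of 0.74 (SE 0.130, adjusted p = 0.00128). For both genes the days overlapped at the edges of their ranges. The anterior PSM and somite list in these cells summed to 13.2 ± 8.54 and 58.3 ± 15.5 CPM, and its part was not tested. In Mature Somites of MULTI-seq 2 (4 and 7 gastruloids) 0 of 5 tested members passed the edgeR test, against 0.888% of genes, while 4 had an unadjusted p below 0.05. DESeq2 called 0 of 4 there, and edgeR without a filter on low counts called 3 of 9.

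Of the types tested between days, Mature Somites of MULTI-seq 3 had the most members changed, between day 4.5 (10 gastruloids) and day 5 (16). Of 9 tested members 7 rose and Hoxb1 fell, against 14.6% of genes called, 6.94% higher and 7.66% lower. Hoxb9 had 0 to 23.9 CPM (median 9.39) at day 4.5 and 17.5 to 159 (median 79.1) at day 5, a 7.14-fold change (log2 2.84, SE 0.311, adjusted p = 3.34e-08). Hoxb8 had 2.12 to 24.5 CPM (median 14.3) and then 30.01 to 92.7 (median 61.0), with no overlap and a log2 fold change of 1.81 (SE 0.185, adjusted p = 1.04e-08). Hoxb6 rose from 4.23 ± 2.25 to 18.2 ± 5.36 CPM (2.11, SE 0.230, adjusted p = 3.06e-08) and Hoxb7 from 10.7 ± 6.22 to 36.8 ± 11.3 (1.77, SE 0.222, adjusted p = 4.05e-07), the days overlapping for both. The rises of the more 3′ members were smaller: Hoxb5 0.93 (adjusted p = 0.00143), Hoxb4 0.38 (adjusted p = 0.00228) and Hoxb3 0.33 (adjusted p = 0.0011). Hoxb2 had 48.6 and 45.02 CPM (-0.12, adjusted p = 0.21). Hoxb1 had 10.1 to 21.2 CPM (median 12.2) and then 2.80 to 12.2 (median 5.57), and it fell by 1.09 (SE 0.157, adjusted p = 4.54e-06), a 2.13-fold lower level with overlap at the edge.

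Each of these 8 calls held under each alternative run, among them DESeq2, a minimum of 50 cells and leaving out each lane. The members' median log2 fold change was 0.93 beside 0.00205 for all genes tested. A median of 91 cells per gastruloid at day 4.5 and 204 at day 5 stood behind the values. After thinning to 5000 UMIs, Hoxb9 was found in 4.33% ± 3.61 of Mature Somites cells at day 4.5 and in 25.6% ± 10.3 at day 5 (10.4% and 49.6% of cells unthinned, at medians of 25476.5 and 24907.5 UMIs). The share in Mature Endoderm cells of the same lanes was 3.38% of 148 cells at day 4.5 and 1.55% ± 1.75 over 8 gastruloids at day 5 (medians of 38581 and 36116 UMIs), so the day 4.5 share is within counting error of that in Mature Endoderm (exact 95% interval 1.11% to 7.71%). Of other types low in Hoxb9, 0 of 68 Head Mesoderm cells held a UMI of it at day 4.5 (up to 5.28%), and at day 5 the shares were 2.604% ± 1.85 in Head Mesoderm and 0.820% in 122 Endothelium cells. In CPM, Mature Somites at day 4.5 had 11.6, above Mature Endoderm (5.05), Head Mesoderm (1.74) and Endothelium (1.47) at day 5. Within Mature Somites the NMP list (T, Sox2, Nkx1-2, Cdx2) summed to 6.29 to 12.9 CPM at day 4.5 and 11.97 to 24.9 at day 5 (4 of 4 higher), against 695 to 839 and 601 to 803 in NMPs. The neural list summed to 9.29 ± 3.095 and 12.9 ± 3.36 CPM (2 of 4 higher) and the posterior PSM list to 5.50 ± 1.93 and 6.05 ± 1.43 (1 of 3 higher), with none of these markers at 0. The part of such cells in the HoxB change was not tested.

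**Figure D3:**
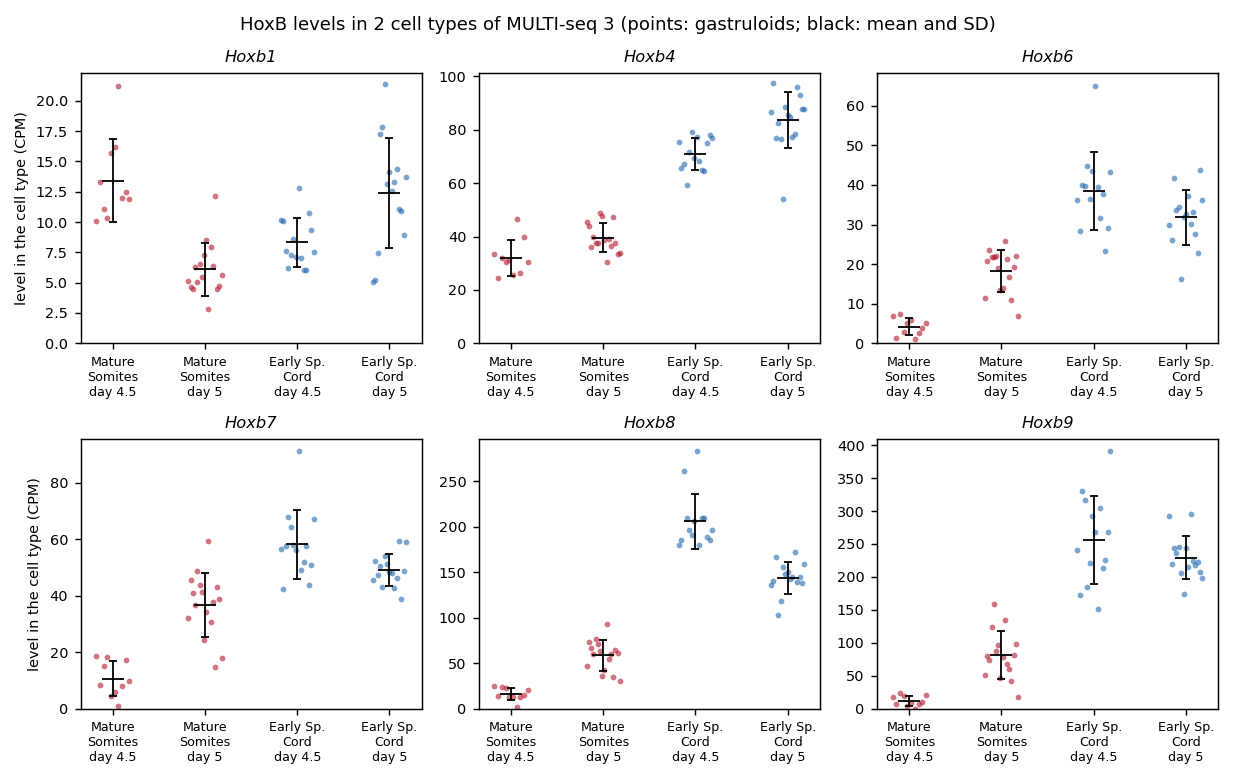
Level of HoxB members (CPM, y axis) in each gastruloid of day 4.5 and day 5 of MULTI-seq 3, in Mature Somites and in Early Spinal Cord, with means and SD. Hoxb8 in Mature Somites moves from 2.12 to 24.5 CPM up to 30.01 to 92.7, while in Early Spinal Cord it moves from 180 to 283 down to 103 to 172.

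Early Spinal Cord, a neural type, moved otherwise between the same days (14 and 15 gastruloids), with 6 of 9 tested members called against 12.3% of genes. Hoxb8 had 180 to 283 CPM (median 197) at day 4.5 and 103 to 172 (median 145) at day 5, with no overlap, and it fell by 0.53 (SE 0.0641, adjusted p = 9.04e-08). Hoxb4 rose from 70.9 ± 6.16 to 83.5 ± 10.5 CPM (0.25, adjusted p = 0.00118) and Hoxb3 from 47.6 ± 5.57 to 54.9 ± 9.24 (0.25, adjusted p = 0.00894). Hoxb1 had 6.02 to 12.8 CPM (median 7.57) and then 5.03 to 21.3 (median 13.1), a rise of 0.56 (adjusted p = 0.0193). Hoxb2 rose by 0.20 (adjusted p = 0.0312), Hoxb7 fell by 0.25 (adjusted p = 0.0258), and Hoxb9 had 256 ± 67.1 and 229 ± 32.3 CPM (-0.16, adjusted p = 0.24), which was -0.28 with adjusted p = 0.0253 at a minimum of 50 cells (9 and 13 gastruloids). Except for Hoxb8 the days overlapped for each member. Hoxb1 lost its call without lane A (0.50, adjusted p = 0.053) or C (0.46, adjusted p = 0.12), Hoxb2 without lane B (0.19, adjusted p = 0.055) or C (0.16, adjusted p = 0.18), and Hoxb7 without lane A (-0.20, adjusted p = 0.13). The neural list in these cells summed to 203 ± 54.7 and 248 ± 32.2 CPM (4 of 4 higher) and the posterior PSM list to 75.3 ± 40.6 and 62.6 ± 20.2 (1 of 3 higher). Of the posterior PSM list, Hes7 had 74.5 and 61.6 CPM and Msgn1 was at 0 on both days. The part of these lists in the HoxB changes was not tested.

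In Late Spinal Cord (7 and 8 gastruloids, 7.79% of genes called) 2 of 9 members changed. Hoxb1 rose from 1.90 to 6.07 CPM (median 3.16) to 5.19 to 16.2 (median 8.23), with overlap and a log2 fold change of 1.23 (SE 0.284, adjusted p = 0.0077). Hoxb8 had 148 ± 11.5 and 125 ± 15.9 CPM and fell by 0.24 (adjusted p = 0.0347), or by 0.21 (adjusted p = 0.12) without lane A. Hoxb1 thus rose in both spinal cord types and fell in Mature Somites between the same days. In Late Spinal Cord the NMP list summed to 336 ± 17.2 and 347 ± 23.2 CPM (3 of 4 higher). The posterior PSM list summed to 3.29 ± 1.56 and 4.14 ± 1.41 CPM there (2 of 3 higher). The anterior PSM and somite list summed to 10.4 ± 1.98 and 14.6 ± 7.20 CPM (4 of 5 higher), and the part of these lists was not tested.

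The progenitor and PSM types changed in 1 to 3 of 9 members between day 4.5 and day 5. In NMPs (8 and 14 gastruloids, 5.98% of genes called and 3.36% lower) 2 of 9 fell: Hoxb8 from 219 ± 14.3 to 182 ± 25.4 CPM (-0.33, adjusted p = 0.000524) and Hoxb6 from 38.3 ± 5.04 to 30.4 ± 9.13 (-0.48, adjusted p = 0.0147), the latter -0.43 with adjusted p = 0.16 without lane B. At a minimum of 10 cells (13 and 16 gastruloids), Hoxb3 (0.27, adjusted p = 0.036) and Hoxb4 (0.21, adjusted p = 0.0172) were called higher in NMPs and Hoxb5 lower (-0.82, adjusted p = 0.00352). The neural list in NMPs summed to 107 ± 23.6 and 139 ± 22.1 CPM (4 of 4 higher) and the NMP list to 750 ± 48.05 and 700 ± 62.3 (2 of 4 higher), and their part was not tested. In Late Anterior PSM (5 and 12 gastruloids, 1.81% of genes) 1 of 9 changed: Hoxb9 had 51.0 to 95.4 CPM (median 70.1) and then 100.1 to 162 (median 127), with no overlap and a log2 fold change of 0.80 (SE 0.128, adjusted p = 0.000171). The neural list in those cells summed to 8.98 ± 6.18 and 20.1 ± 5.55 CPM and the NMP list to 23.3 ± 6.87 and 38.2 ± 7.92, and their part was not tested. In Late Posterior PSM (9 and 15 gastruloids, 6.15% of genes) 3 of 9 changed: Hoxb1 fell by 0.32 (104 to 81.8 CPM, adjusted p = 0.0205), Hoxb4 rose by 0.27 (101 to 126 CPM, adjusted p = 0.00585) and Hoxb6 fell by 0.38 (37.4 to 30.2 CPM, adjusted p = 0.0304). None of these 3 calls held without lane A or without lane C. There the log2 fold changes were -0.31 and -0.30 for Hoxb1, 0.23 and 0.27 for Hoxb4, and -0.46 and -0.38 for Hoxb6 (adjusted p = 0.058 to 0.11). At a minimum of 50 cells they were -0.29, 0.24 and -0.48 (adjusted p = 0.16, 0.13 and 0.072). The anterior PSM and somite list in these cells summed to 96.1 ± 31.8 and 189 ± 49.8 CPM (5 of 5 higher) and the neural list to 14.1 ± 7.70 and 31.2 ± 11.2 (4 of 4 higher), and their part was not tested. Over the 6 types tested between these days, 22 of 54 tests of a member in a type passed, 14 higher and 8 lower. Without lane A, which left 4 types, 13 passed.

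**Figure D4:**
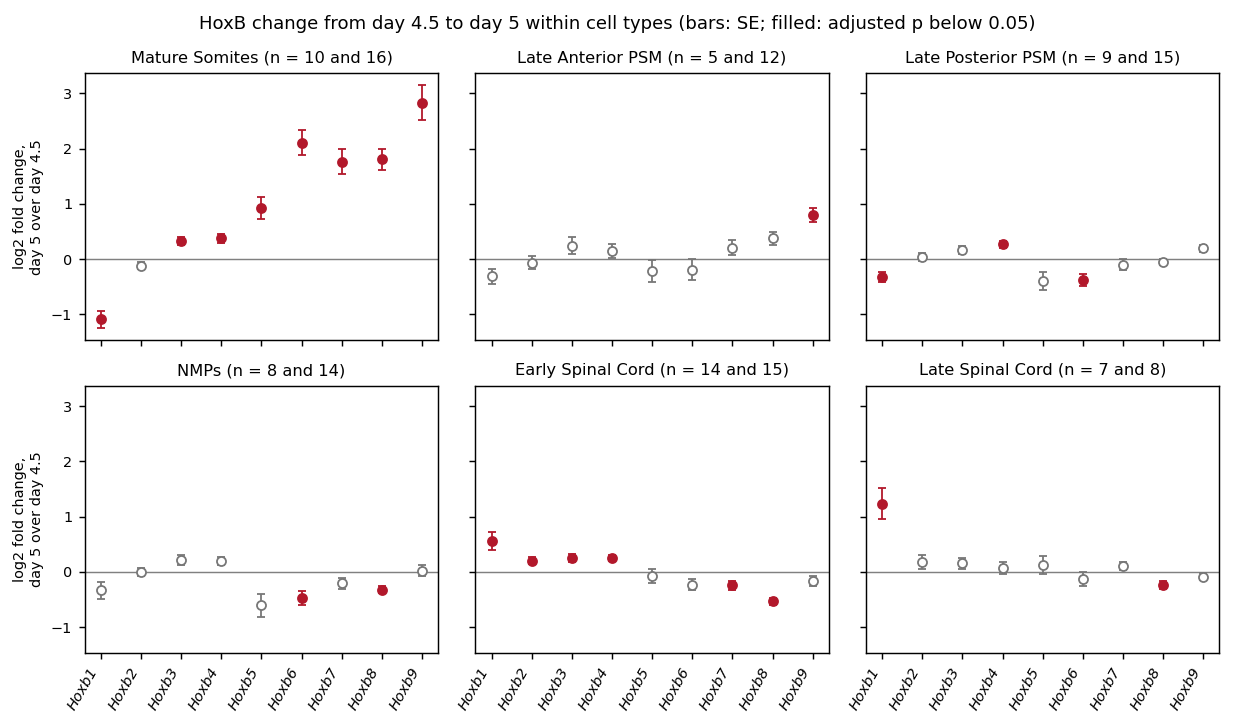
Log2 fold change from day 4.5 to day 5 (y axis) with its SE for Hoxb1 to Hoxb9 (x axis, 3′ to 5′) in each cell type tested in MULTI-seq 3. In Mature Somites the values run from -1.09 for Hoxb1 to 2.84 for Hoxb9, while the other types stay between -0.61 and 1.23.

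Whether days acted differently in the pair of tissues was tested directly, with each gastruloid as a block, on gastruloids holding 20 cells of both (8 at day 4.5, 15 at day 5). The difference in log2 fold change, Early Spinal Cord minus Mature Somites, passed for 5 of 9 tested members, against 4.06% of 10680 genes. It was 1.59 for Hoxb1 (SE 0.255, adjusted p = 7.71e-05), -2.14 for Hoxb6 (adjusted p = 8.45e-07), -1.88 for Hoxb7 (adjusted p = 5.44e-05), -2.19 for Hoxb8 (adjusted p = 1.4e-08) and -2.52 for Hoxb9 (SE 0.324, adjusted p = 1.42e-06). Hoxb5 had -0.88 (adjusted p = 0.068), which passed at a minimum of 10 cells (-0.98, adjusted p = 0.0219) and without a filter on low counts (-0.88, adjusted p = 0.0042), and Hoxb2, Hoxb3 and Hoxb4 did not pass. Between day 3.5 and day 4, Early Spinal Cord minus Early Posterior PSM rested on 3 gastruloids per day and passed for 2 of 9 members, against 0.61% of genes: -1.5 for Hoxb8 (adjusted p = 0.0483) and -2.70 for Hoxb9 (adjusted p = 0.0119). With a minimum of 10 cells (9 and 5 gastruloids) neither passed (-0.45, adjusted p = 0.6, and -1.54, adjusted p = 0.087) and Hoxb6 did (-1.88, adjusted p = 0.0232).

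The other Hox clusters were read in the same fits. In Mature Somites between day 4.5 and day 5, where 6.94% of all tested genes were called higher and 7.66% lower, 5 of 5 tested HoxC genes rose with a median of 2.66, led by Hoxc8 from 0.896 to 17.6 CPM (4.21, adjusted p = 2.41e-05) and Hoxc6 from 1.04 to 14.2 (3.70, adjusted p = 3.86e-06). The gene list holds 9 HoxC genes. The filter on low counts can admit a gene through day 5 alone, while it drops genes low on both days. Counts of rises in this and the other Hox clusters were thus in part set by the filter. Of 6 HoxA genes 2 rose, Hoxa7 by 3.08 and Hoxa5 by 1.5, and Hoxa2 fell by 0.56, and 4 of 5 HoxD genes rose. Hoxb5os, which runs antisense inside the cluster, rose from 12.8 to 70.8 CPM (2.46), while Hoxb3os fell by 0.47. The genes flanking the cluster moved little: on the Hoxb1 side 1 of 3 fell (Nfe2l1, by 0.18) and on the Hoxb13 side 0 of 2 passed. Of 10 tested genes known to act on Hox clusters, Cdx2 rose from 1.68 to 4.41 CPM (1.37, adjusted p = 0.0044) and 4 fell: Aldh1a2, the enzyme that makes retinoic acid, by 0.96, Lin28a by 0.42, the retinoic acid receptor gene Rara by 0.39, and Nr6a1 by 0.34. Of 9 genes for PBX, MEIS and PKNOX partners of HOX proteins 4 fell and 0 rose, against the same shares of all genes, and Meis2 fell most, by 0.51.

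In Early Spinal Cord over the same days, where 579 of 9150 tested genes were called higher and 548 lower, Hoxc10 went from 11.7 to 98.9 CPM (3.07, adjusted p = 4.14e-10), Hoxa10 from 3.70 to 28.4 (2.76, adjusted p = 1.23e-08) and Hoxc8 from 334 to 174 (-0.95, adjusted p = 6.83e-12). In all, 3 of 8 HoxA genes rose, 3 of 6 HoxC genes rose and 1 fell, and 4 of 5 HoxD genes rose. Nr6a1, known for its part in the trunk-to-tail change, fell by 0.87 there (66.8 to 37.3 CPM). In Early Posterior PSM between day 3.5 and day 4, 7 of 14 genes known to act on Hox clusters fell and 3 rose, against 18.6% and 18.3% of all tested genes: Cdx1 went from 33.3 to 6.24 CPM (-2.47), Cdx2 from 51.3 to 22.8 (-1.37) and Aldh1a2 from 566 to 960 (0.70). In that type 4 of 5 HoxD genes rose.

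At day 5 the spread between whole gastruloids went with their makeup, which is in part built into the measure. For each gastruloid a level was predicted from its share of UMIs in each type and the mean of that type in the other gastruloids of its group. It was set against the measured level in 19 relations, each with a two-sided permutation test of 100000 resamples (smallest p 1e-05) adjusted over the 19. A measured level is itself the sum over types of that share times the type's own level. Prediction and measurement thus hold the same shares, and types were clusters of expression that included these genes. A small p is therefore no separate evidence that makeup sets the level. In MULTI-seq 1 (n = 24) Hoxb9 ranged from 90.5 to 307 CPM and the prediction from 91.9 to 262, with Pearson r 0.94 and Spearman rho 0.94 (permutation p = 1e-05 for both, adjusted p = 2.38e-05) and r 0.91 without the 2 outermost gastruloids. In MULTI-seq 3 (n = 16) Hoxb9 ranged from 85.1 to 242 CPM, with r 0.95, rho 0.92 and r 0.95 without 2 (permutation p = 1e-05, adjusted p = 2.38e-05). For Hoxb1 r was 0.95 in MULTI-seq 1 (rho 0.94, without 2 0.93) and 0.80 in MULTI-seq 3 (rho 0.75, permutation p = 0.00026, adjusted p = 0.00038, without 2 0.70). In all, 17 of 19 relations passed by r and 15 by rho, the exceptions by r being Hoxb5 (r 0.34, rho 0.11, adjusted p = 0.21) and Hoxb13 (r 0.30, rho 0.44, adjusted p = 0.26) of MULTI-seq 3. Those of Hoxb7 did not pass by rho (adjusted p = 0.2 and 0.066) and rested on 2 gastruloids, since r was 0.54 and 0.65 with them and 0.27 and 0.21 without. In 27 further relations between a member's level in Early Spinal Cord and in Mature Somites of the same gastruloid (day 5 of MULTI-seq 1 and days 4.5 and 5 of MULTI-seq 3), 0 passed after adjustment and 1 had an unadjusted permutation p below 0.05 by r.

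**Figure D5:**
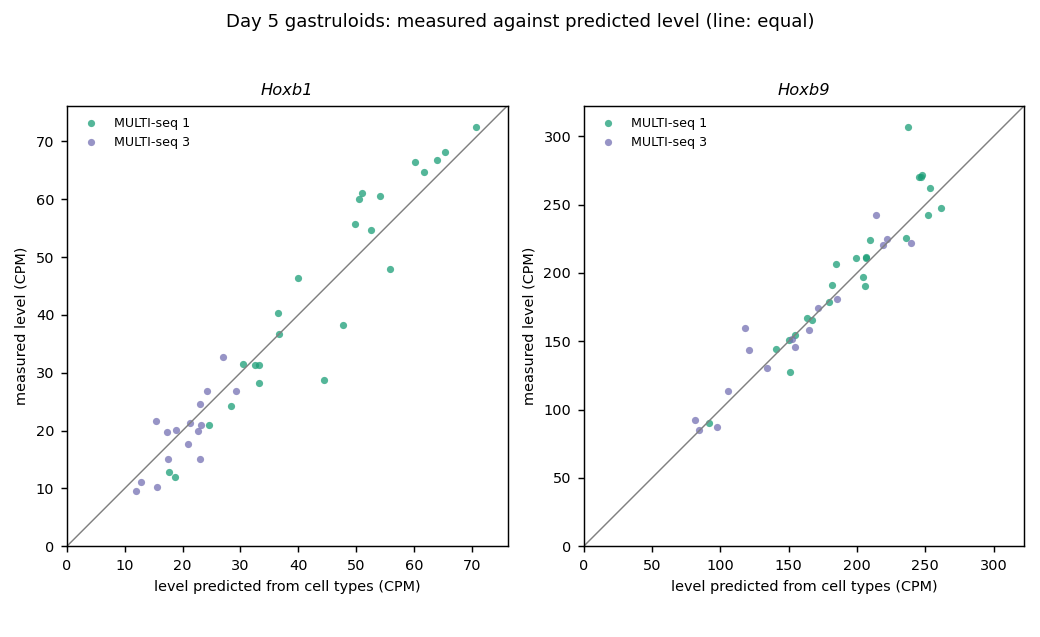
Measured whole-gastruloid level of Hoxb1 and Hoxb9 (CPM, y axis) against the level predicted from the makeup in types (CPM, x axis) at day 5, with 1 point per gastruloid of MULTI-seq 1 and MULTI-seq 3 and the line of equality. Hoxb9 follows the prediction from 85.1 to 307 CPM, with r 0.94 and 0.95.

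Within Mature Somites at day 5, the 5′ members varied together from gastruloid to gastruloid. Pairs of Hoxb1 to Hoxb9 were set against each other in Mature Somites and Early Spinal Cord of both experiments, 144 relations in all with permutation tests adjusted over them. In Mature Somites of MULTI-seq 3 (n = 16) 10 pairs were positive and 2 negative past the threshold, and the 10 are the pairs among Hoxb5 to Hoxb9. Hoxb7 and Hoxb8 gave r 0.93 and rho 0.97 (permutation p = 1e-05 for both, adjusted p = 0.000576 and 0.00144, r 0.94 without 2 gastruloids), and Hoxb8 and Hoxb9 gave r 0.85 and rho 0.80 (adjusted p = 0.000576 and 0.0095, r 0.74 without 2). Hoxb1 ran against Hoxb7 with r -0.73 and rho -0.70 (permutation p = 0.00144 and 0.0033, adjusted p = 0.0115 and 0.0307), but r was -0.40 without 2 gastruloids, so the relation rests on those. In Mature Somites of MULTI-seq 1 (n = 22) 13 pairs passed by r and 6 by rho, with Hoxb8 and Hoxb9 at r 0.89 and rho 0.71 (r 0.71 without 2), and several rested on 2 gastruloids, such as Hoxb3 and Hoxb6 (r 0.74, then 0.02). In Early Spinal Cord of MULTI-seq 1 (n = 20) 3 pairs passed by r and 1 by rho. In that of MULTI-seq 3 (n = 15) 0 passed by r and 1 by rho, and 7 pairs fell into clusters and were not pooled. CPM values of 1 gastruloid share its total, which can tie genes together.

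Experiments that held the same day differed in level for some members. Culture, library, depth and mitochondrial share differed with the experiment and cannot be told apart. At day 5, 5 of 9 members were lower in MULTI-seq 3 than in MULTI-seq 1 over whole gastruloids, against 63.7% of genes called and 33.7% called lower. Hoxb3 had 49.9 to 97.3 CPM (median 75.6) in MULTI-seq 1 and 28.3 to 49.3 (median 40.3) in MULTI-seq 3, with no overlap and a log2 difference of -0.70 (SE 0.0812, adjusted p = 5.46e-10). Hoxb2 was lower by the same measure (-0.68, adjusted p = 1.92e-10) and Hoxb1 too (-0.98, adjusted p = 9.65e-06), and Hoxb4 (-0.55, adjusted p = 6.29e-07) and Hoxb6 (-0.45, adjusted p = 0.000289) were the others, while Hoxb9 had 205 ± 52.4 and 158 ± 50.4 CPM (-0.14, adjusted p = 0.36). Scaling by library size alone moved the median of all genes by -0.245 and called 9 members, so the differences above are relative to the TMM scaling. At day 4, 1 of 9 members was called (Hoxb2, -0.46, adjusted p = 0.0214, against 46.1% of genes) and at day 4.5 also 1 (Hoxb2, -0.27, adjusted p = 0.0251, against 42.4%). The day 4 call was lost under library size scaling (-0.29, adjusted p = 0.13), without a filter on low counts (-0.40, adjusted p = 0.067) and at a minimum of 100 cells (-0.45, adjusted p = 0.091).

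Within types, Hoxb2 was lower in MULTI-seq 3 in 14 of 14 tests, Hoxb3 in 13 of 14, Hoxb1 in 9 of 14, Hoxb4 in 6 of 14 and Hoxb6 in 5 of 13. Counts of calls within types depended on the processing. Far fewer day 4.5 calls stood without lane 2 of MULTI-seq 2, and more day 5 calls stood under library size scaling. The share of all tested genes called lower was 10.9% in Early Posterior PSM, 15.4% in Late Posterior PSM and 14% in Mature Somites at day 4. At day 4.5 it was 18.7% in Early Spinal Cord, 14.5% in Late Posterior PSM, 12.5% in Late Spinal Cord and 14.8% in Mature Somites. At day 5 it was 31.2% in Early Spinal Cord, 19.8% in Late Anterior PSM, 27.4% in Late Posterior PSM, 24% in Late Spinal Cord, 29.8% in Mature Somites, 27.4% in NMPs and 5.08% in Somites. Hoxb9 was called lower in 2 of 13 tests and higher in 1. That last was Early Spinal Cord at day 5 (0.15, adjusted p = 0.0198, 27.9% of genes higher), which turned to -0.094 under library size scaling. In Mature Somites at day 4.5, 4 members were higher in MULTI-seq 3, against 16.1% of genes: Hoxb4 (18.5 to 32.1 CPM, 0.83), Hoxb5 (1.38), Hoxb7 (4.73 to 10.7 CPM, 1.51) and Hoxb8 (10.7 to 16.2 CPM, 0.96). In Mature Somites at day 5 Hoxb9 had 92.0 ± 36.6 CPM in MULTI-seq 1 and 81.0 ± 36.2 in MULTI-seq 3 (-0.04, adjusted p = 0.86), and both ranges reached below 20 CPM, to 11.1 and 17.5.

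Over 52 groups (a type on a day of an experiment) the members were compared by Pearson r of log2(CPM + 1), given as a description since groups share libraries and cells. Hoxb7, Hoxb8 and Hoxb9 were most alike (0.97 to 0.98 for their 3 pairs), Hoxb6 and Hoxb9 had 0.94, Hoxb2 and Hoxb3 had 0.93, Hoxb1 and Hoxb2 0.71, and Hoxb1 and Hoxb9 0.09. Among 9325 genes other than the members, the 3 most like Hoxb1 were Rftn1 (0.87), the PSM transcription factor gene Tbx6 (0.86) and the Notch ligand gene Dll1 (0.86). Those most like Hoxb4 were Hoxa4 (0.96), Hoxd4 (0.95) and Hoxa3 (0.92), and those most like Hoxb9 were Hoxc6 (0.94), Hoxc8 (0.94) and Hoxc4 (0.92). Hoxb8 was most like Hoxc4 (0.92) and Hoxb7 like Skap2 (0.92), a gene beside the HoxA cluster. Hoxb2 was most like Hoxd4 (0.86), Hoxb3 like Slc39a6 (0.91), Hoxb5 like Hoxd4 (0.92) and Hoxb6 like Hoxb5os (0.92).

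Hoxb13 was close to undetected. It had 264 UMIs over all lanes and did not pass the filter in any comparison. At day 5 of MULTI-seq 1 it had 0.539 ± 0.505 CPM (62 UMIs, with 6 of 24 gastruloids at 0), and at day 5 of MULTI-seq 3 it had 0.230 ± 0.244 CPM (89 UMIs, 4 of 16 at 0). At day 4 of MULTI-seq 2, 11 of 11 gastruloids had 0 UMIs. Its highest mean in a type of MULTI-seq 3 was 0.774 ± 0.861 CPM in Early Spinal Cord at day 5.

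Lanes without gastruloid calls give 1 value each, with exact Poisson 95% intervals that cover counting error only. The 10X day 3 lane had 83.8 CPM of Hoxb1 (81.4 to 86.3) and 14.6 of Hoxb9 (13.6 to 15.7), whereas the highest day 3 gastruloid of MULTI-seq 3 had 32.3 CPM of Hoxb1. The 10X day 4 lane had 95.3 CPM of Hoxb1 (92.2 to 98.5) and 97.5 of Hoxb9 (94.4 to 100.7). The lanes of pool C of MULTI-seq 2, which mix days 4 and 4.5, had 40.8 and 41.4 CPM of Hoxb1 and 163 and 155 of Hoxb9.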

How the data were processed

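Single-cell RNA of mouse gastruloids was measured on 18 10x lanes. The deposited values are raw UMI counts per gene and cell barcode, whole numbers that the authors made with Cell Ranger 6.0.0, with Seurat and the build mm10 also named in the submitters' processing notes. Not given in the sources used here were their gene annotation, use of strand and barcode filters. Final cells, cell types and gastruloid barcodes came from the authors' deposited cell table. Cells that the table gives as doublets or with no barcode entered no sum per gastruloid, and no doublet caller was run. Days 3 and 3.5 of MULTI-seq 2 are not analysed here.

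Counts were summed per gastruloid, and per gastruloid and type, over the lanes of a pool, since lanes are technical splits. A gastruloid needed 30 cells, or 20 of a type, and a group 4 gastruloids. Tests used edgeR 4.0.16 (quasi-likelihood, TMM scaling, filterByExpr) in R 4.3.3, over all genes, and the scripts were tested on simulated data. Depth per sample is given with the lanes, and counting intervals cover counting error only. Alternatives were DESeq2 1.42.0, library size scaling, no filter on low counts, other cell minimums (10, 50 and 100), the neural share as a covariate, thinning to 2500 UMIs and leaving out each lane. Relations used scipy 1.17.1 on log2(CPM + 1). The relations among members over gastruloids were added after the data were seen. Background shares were planned in Epiblast, PGCs and Endothelium, which held 53 to 122 cells per day of MULTI-seq 3, and were read mainly in Mature Endoderm, which held more. Hoxb9 had 39.4 CPM in Epiblast at day 3.5 and 7.91 at day 3, 1.63 in PGCs at day 3 and 1.47 in Endothelium at day 5, so the type chosen sets the background. Named genes are the 10 members, lists by their counts with up to 4 examples, and the genes most like a member by Pearson r over groups, at a mean of 5 CPM or more. Lists were the other Hox clusters, flanking and antisense genes, genes known to act on Hox clusters, and HOX partners. The members and lists were chosen with earlier results of these data known.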

Additional observations from a re-analysis of the deposited data

Results flagged for a closer look

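In 6 of 90 groups of 4 to 10 gastruloids the outermost value stood apart from its nearest neighbour by more than Dixon's 95% limit allows, and chance gives about 1 in 20. In MULTI-seq 3 these were the highest Hoxb9 of 10 gastruloids in Early Posterior PSM at day 3.5 (7.07 CPM, next 3.51), the lowest Hoxb8 of 7 in Late Spinal Cord at day 4.5 (124, next 148), the lowest Hoxb8 of 10 in Mature Somites at day 4.5 (2.12, next 13.04) and the highest Hoxb9 of 8 in NMPs at day 4.5 (345, next 225). In MULTI-seq 2 they were the highest Hoxb5 of 8 in Late Posterior PSM at day 4.5 (37.2 CPM, next 20.7) and the lowest Hoxb9 in the same cells (113, next 140.0).

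Changes between days differed between tissues in 7 tests of the difference itself (edgeR's quasi-likelihood test, adjusted over all genes). From day 4.5 to day 5, Early Spinal Cord minus Mature Somites was 1.59 for Hoxb1, -2.14 for Hoxb6, -1.88 for Hoxb7, -2.19 for Hoxb8 and -2.52 for Hoxb9 on the log2 scale. From day 3.5 to day 4, Early Spinal Cord minus Early Posterior PSM was -1.5 for Hoxb8 and -2.70 for Hoxb9, over 3 gastruloids per day. At a minimum of 10 cells (9 and 5 gastruloids) neither passed, with -0.45 (adjusted p = 0.6) and -1.54 (adjusted p = 0.087). Hoxb8 was also lost under library size scaling (adjusted p = 0.0556).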

How the results depend on the processing

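Of the fold changes followed under alternatives (those called and a few others the text names), 914 kept their direction and side of the threshold, 89 lost the threshold, 1 became stronger and 1 changed sign. Where none is given, the cause was not tested. The 1 that changed sign was Hoxb9 in Early Spinal Cord at day 5, MULTI-seq 3 against 1 (0.15, and -0.094 under library size scaling). Members that were not called in the results given above were called under an alternative 12 times in whole gastruloids and 75 times within types, among them types that entered at 10 cells.

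For whole gastruloids, members called between day 4.5 and day 5 went from 0 to 1 with the neural share as covariate. Between experiments, calls at day 4 went from 1 to 0 under library size scaling, without a filter on low counts and at 100 cells; at day 4.5 from 1 to 2 with the neural share; and at day 5 from 5 to 9 under library size scaling. Leaving out each lane gave 4 calls for day 4 against 3.5, 1 for day 4.5 against 4 and 0 for day 5 against 4.5. Between experiments it gave 1, 1 and 5 to 6 at days 4, 4.5 and 5. For day 4.5 against 4, the 1 call without lane 2 of MULTI-seq 2 was Hoxb1 and no longer Hoxb3.

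Within types, calls for day 4 against 3.5 (13 of 17 tests in 2 types) were 20 at 10 cells, 7 at 50 cells and 9 to 11 without a lane. Those for day 4.5 against 4 (2) were 5 without a filter, and too few gastruloids remained without a lane. Those for day 5 against 4.5 (22) were 13 to 17 without a lane. Between experiments, calls at day 4 (8) were 5 under library size scaling and 8 to 9 without a lane, at day 4.5 (18) 8 at 50 cells and 4 to 19 without a lane (4 without lane 2 of MULTI-seq 2, 8 without lane 3), and at day 5 (30) 47 under library size scaling and 25 to 30 without a lane. Fewer or more gastruloids and types entered at other cell minimums and without a lane. The difference between tissues from day 3.5 to day 4 was called for 2 members, and for 1 under library size scaling and 1 at 10 cells; none could be fitted for MULTI-seq 2. Relations among members went from 28 to 13 at 50 cells. The share of Early Posterior PSM cells with Hoxb1 at day 3.5 was 56.2%, and 36.3% thinned to 2500 UMIs, since fewer UMIs are drawn.

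No paired analysis was possible because no source ties a gastruloid of one day or experiment to one of another, barcode numbers that recur between experiments included, and the numbers and letters of lanes mark technical splits. Counts were low for Hoxb13, and for Hoxb5, Hoxb6, Hoxb7 and Hoxb9 in young mesoderm, which limits what can be read there. The part of depth in this was not tested.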

Other observations

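Hoxb1 and Hoxb9, the ends of the main cluster, were found together in single PSM cells and NMPs about as often as their separate shares give. Among day 5 cells of MULTI-seq 3 thinned to 5000 UMIs, 31.0% of 939 Late Posterior PSM cells held a Hoxb1 UMI and 56.9% a Hoxb9 UMI. Both were found in 16.7%, and the product of the shares is 17.6%. In NMPs (850 cells) both were found in 8.59% against a product of 8.80%, and in Late Anterior PSM (558 cells) in 13.1% against 12.6%. In Early Spinal Cord (1870 cells) both were found in 2.30% against 3.26%, and in Mature Somites (3190 cells) in 0.909% against 0.750%. These are shares over the cells of 1 group, given with no test.

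Counted over the types tested between days at 20 cells, where 0.846% to 36.9% of all tested genes were called, Hoxb3, Hoxb4 and Hoxb5 rose in 4 of 10, 5 of 10 and 3 of 9 tests and fell in 0. Hoxb9, too, rose in 4 of 9 and fell in 0. Hoxb1 rose in 2 of 10 and fell in 4, and Hoxb8 rose in 3 of 10 and fell in 3. At a minimum of 10 cells Hoxb5 also fell in NMPs from day 4.5 to day 5 (-0.82, adjusted p = 0.00352 in edgeR's quasi-likelihood test), and at a minimum of 50 cells Hoxb9 fell in Early Spinal Cord (-0.28, adjusted p = 0.0253).

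Other types entered only at a minimum of 10 cells, and members moved in both directions in them. The filter on low counts can admit a member through its higher day alone. That may hold in Primitive Streak for Hoxb2, Hoxb4 and Hoxb7 (18.8, 16.1 and 15.1 CPM at day 3.5, 3.37, 5.30 and 4.55 at day 4). It may also hold for Hoxb4 in Somites of MULTI-seq 2 (12.1 and 59.1 CPM). Where such members entered, counts of calls among tested members lean towards members that changed. In Primitive Streak between day 3.5 (16 gastruloids) and day 4 (5) of MULTI-seq 3, 5 of 6 tested members fell, against 457 of 8262 genes called: Hoxb1 by 2.81, Hoxb2 by 2.604, Hoxb7 by 2.255, Hoxb8 by 1.95 and Hoxb4 by 1.83 (adjusted p = 7.33e-05 to 0.00405). Over the same days Hoxb1, 1 of 2 members tested, fell by 1.69 in Early Nascent Mesoderm (6 and 4 gastruloids, adjusted p = 0.0135, 50 of 6828 genes called). In Late Posterior PSM (4 and 14 gastruloids, 916 of 9631 genes called) 3 of 9 rose, Hoxb4, Hoxb6 and Hoxb9 by 0.35, 0.46 and 0.96 (adjusted p = 0.0308, 0.0164 and 0.00549). In Somites of MULTI-seq 2 (4 and 4 gastruloids, 19 of 4408 genes called) Hoxb4, 1 of 4 tested, rose by 2.11 from day 4 to day 4.5 (adjusted p = 0.00223). Somites, the segments before Mature Somites, entered the test between day 4.5 and day 5 of MULTI-seq 3, with 3 of 9 members called against 218 of 6146 genes. Over 10 gastruloids of day 4.5 and 12 of day 5, Hoxb9 rose there from 38.8 to 155 CPM (log2 fold change 2.12, SE 0.143, adjusted p = 2.94e-14 in edgeR's quasi-likelihood test). Hoxb7 rose by 1.02 (adjusted p = 0.000134) and Hoxb8 by 0.63 (adjusted p = 0.013).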
